A study of Homo sapiens with 12 samples.

Results

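The elements described here were the internal parts of the HERV-E endogenous retroviruses (HERVE-int and HERVE_a-int) and long terminal repeats that can flank them (LTR2, LTR2B and LTR2C). They were followed in RNA that co-purified with V5-tagged proteins from human A375 melanoma cells. Members were all annotated elements of those 5 repeat subfamilies with reads on the strand of the element, and there were 913 of them among 1509971 elements listed on their own strand in at least 1 library. They comprised 371 LTR2, 182 HERVE-int, 136 LTR2B, 124 LTR2C and 100 HERVE_a-int elements. PAR-CLIP was performed with 4 constructs and 3 libraries each: the fluorescent protein Clover as control, full-length ZC3H18 (Z18fl), truncated ZC3H18 that lacks its C-terminal region (Z18trunc), and the same truncated protein with aromatic residues of its zinc finger mutated (Z18truncZnFmut). All constructs were V5-tagged and transiently transfected into cells that kept their own ZC3H18. Cells were labelled with the nucleoside 4-thiouridine from 24 h after transfection and crosslinked at 316 nm before the anti-V5 immunoprecipitation, so a read count reflects both how much of an RNA was present and how much of it was recovered with the protein, which cannot be told apart here. The files hold repeats alone, so neither the identity of the cells nor the level of each construct could be checked in them.

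HERV-E elements are remnants of gammaretrovirus-like infections of the primate germline and are named for the glutamic acid tRNA that the virus used as primer. In an intact copy, an LTR2 on each side encloses the internal part with the former gag, pol and env genes. The first repeat can act as promoter and the second supplies the polyadenylation signal AATAAA, and many LTR2 stand alone after recombination between the pair. ZC3H18 is a CCCH zinc-finger protein that joins the cap-binding complex to adaptors of the nuclear exosome, which degrades unstable nuclear RNA. The comparisons asked how much HERV-E RNA was recovered with each form of the protein over the Clover background, and how truncation and the zinc-finger mutation altered that.

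Over the 12 libraries together, the largest member count came from a HERV-E copy on chromosome 18 that retained a repeat at each end. The first 150 bases of the HERVE_a-int element that follows its first repeat, chr18:55950851-55951000, printed 5′ to 3′ on the plus strand of hg38, are given because they open the element with the largest count.
chr18 HERVE_a-int start: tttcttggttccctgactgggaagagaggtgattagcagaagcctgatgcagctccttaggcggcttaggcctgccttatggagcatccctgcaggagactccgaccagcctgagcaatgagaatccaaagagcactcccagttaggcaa

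A copy with both repeats on the minus strand of chromosome 13 held the HERVE-int element with the largest count. The last 120 bases of its repeats, chr13:40880826-40880945 and chr13:40874123-40874242, are given 5′ to 3′ on the minus strand of hg38 to show the polyadenylation signal AATAAA, in capitals, that both kept.
chr13 first LTR2: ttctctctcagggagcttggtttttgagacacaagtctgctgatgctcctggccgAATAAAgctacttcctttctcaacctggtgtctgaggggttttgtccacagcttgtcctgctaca
chr13 second LTR2: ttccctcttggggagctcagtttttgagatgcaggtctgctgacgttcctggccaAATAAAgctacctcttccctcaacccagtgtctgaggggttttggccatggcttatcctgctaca

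Along the 462 aligned columns of the chromosome 13 pair, 394 bases were identical (85.3%). Among elements of 400 to 500 bases, AATAAA was found on the element's strand in 91.5% of 331 LTR2, 81.0% of 121 LTR2B and 78.3% of 60 LTR2C, and in 43.3% of 42637 other LTR-class elements of that length, internal parts left out. On the opposite strand the same letters were found in 0.604%, 0.826% and 0% of the LTR2, LTR2B and LTR2C elements and in 18% of the others. The letters TATAAA, searched likewise and unable to start at the same base as AATAAA, were on the element's strand in 2.42%, 8.26% and 3.33%, against 28.3% of the others. On the opposite strand they were in 3.63% of LTR2, 90.9% of LTR2B and 41.7% of LTR2C elements, against 22.4% of the others. LTR2B had the lowest median divergence from its consensus, 6.4%, followed by LTR2 at 7.5%, LTR2C at 10.4%, HERVE-int at 10.6% and HERVE_a-int at 10.8%.

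The 12 libraries held 16683132 to 25686948 aligned fragments, with the Clover libraries lowest at 16683132 to 17673644. Z18truncZnFmut replicate 3 stood apart. It listed 873246 elements on their own strand, against 162206 to 397792 in the other 11, and 55.4% of its element counts were on the strand of the element, against 60.3% to 64.0%. Results that involve this construct are given with and without that library where it changed them. Levels are given as CPM, counts per 1000000 aligned fragments, and fold changes come from edgeR after TMM scaling, which puts the typical element near 0. With aligned fragments as library size instead, the median log2 fold change over all loci tested was 0.48 for Z18fl, 0.39 for Z18trunc and 0.24 for Z18truncZnFmut against Clover, so each fold change below is relative to the typical element. The labels do not say whether the 3 libraries of a construct came from separate cultures, so p-values measure only the spread between those libraries.

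Members were sparsely covered. Together they held 17163.9 counts over the 12 libraries, 0.119% of all element counts, and 71.8% of these came from uniquely mapping reads. Counts reached 10 in 171 members and 100 in 23, while 742 members had under 10. Only 44 were listed in all 12 libraries and 434 in a single one, of which 252 were listed in Z18truncZnFmut replicate 3 alone. The counts were also concentrated: 1 locus held 11.8% of them, 5 loci 35.3%, 10 loci 49.5% and 20 loci 61.3%. When neighbouring members on the same strand were joined over gaps of up to 10 kb, 659 stretches resulted, and the top one, on chromosome 18, held 18.6% of member counts. The 5 largest stretches, on chromosomes 18, 13, 5 (one in RPS23 and one in TMEM161B) and 7, held 44.1%. The share of the top 10 loci was 46.8% ± 4.29 (SD, n = 3) with Clover, 59.5% ± 2.15 with Z18fl, 49.0% ± 3.51 with Z18trunc and 41.7% ± 11.2 with Z18truncZnFmut. The Z18truncZnFmut libraries had 50.2%, 45.8% and, in replicate 3, 29.0%. The loci were ranked on all 12 libraries together, which favours loci high in Z18fl, the group with the most member counts.

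The internal parts were highest with full-length ZC3H18, while the LTR2 elements as a whole were not. Summed over all members, HERVE internal parts measured 26.2 ± 1.76 CPM with Clover (24.2 to 27.4), 57.6 ± 2.12 with Z18fl (55.3 to 59.4), 42.2 ± 2.23 with Z18trunc (39.7 to 44) and 40.8 ± 8.24 with Z18truncZnFmut (34.8 to 50.2), each with n = 3. All 9 libraries of the ZC3H18 constructs were above all Clover libraries, and the Z18fl libraries were above all others. LTR2 elements measured 20.3 ± 1.39 CPM with Clover, 19.8 ± 1.57 with Z18fl, 20.3 ± 1.36 with Z18trunc and 26.6 ± 10.6 with Z18truncZnFmut, where the libraries ran from 20.1 to 38.8 CPM and averaged 20.4 without replicate 3. Those 4 groups overlapped. As counts per 1000000 element counts instead, the internal parts measured 664, 1107, 741 and 646 in Clover, Z18fl, Z18trunc and Z18truncZnFmut, and the LTR2 elements 513, 381, 356 and 404, so on that scale Z18fl and Z18trunc had a higher mean than Clover for the internal parts. Without replicate 3 the Z18truncZnFmut mean for them was 690, also above Clover. Outside the 5 loci with the largest counts, the internal parts differed less, at 20.9, 23.7, 23.9 and 28.0 CPM, the last being 23.0 without replicate 3.

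**Figure D1:**
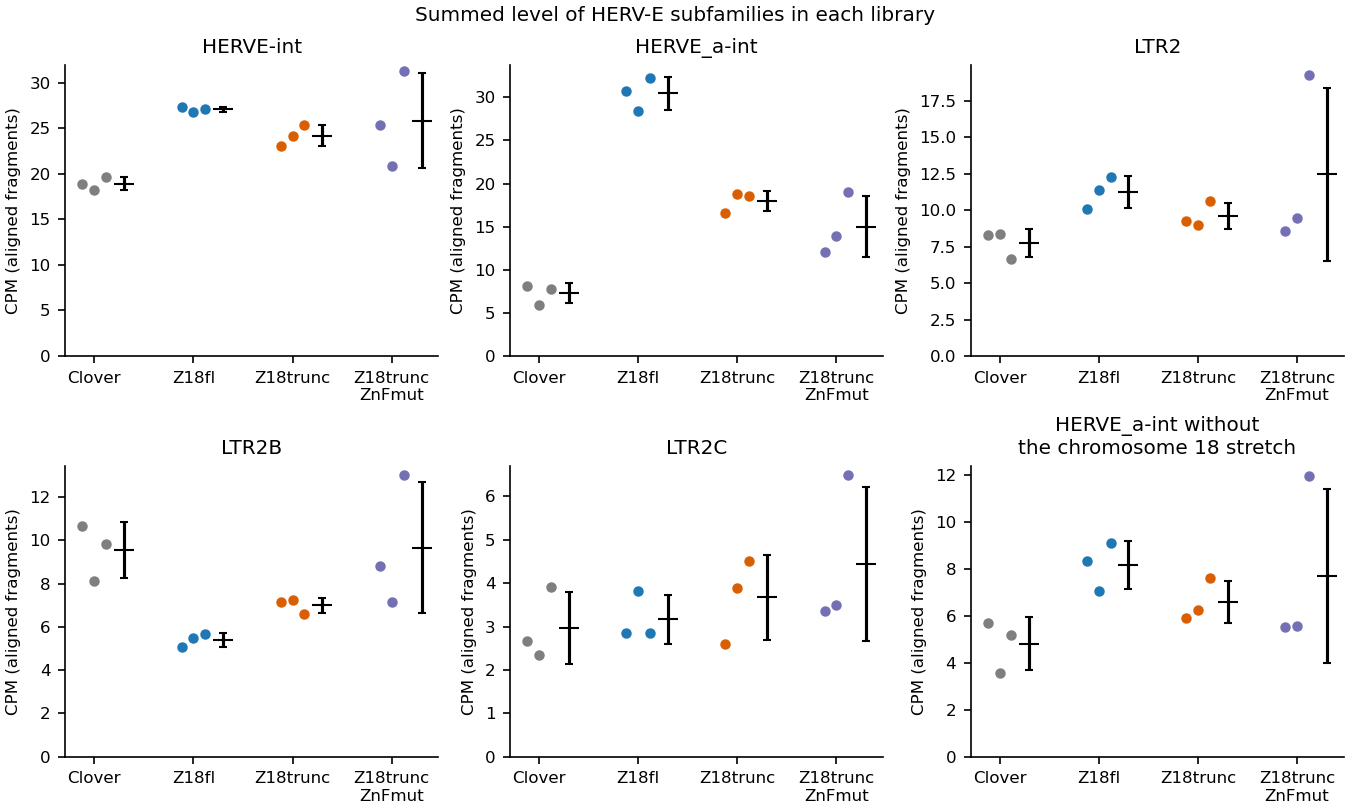
Summed CPM (counts per 1000000 aligned fragments) of each subfamily in each of the 12 libraries by construct, with points for libraries and black dashes with bars for the mean and SD of 3; the last panel leaves the chromosome 18 stretch out of HERVE_a-int. HERVE_a-int stands highest in the 3 Z18fl libraries (mean 30.5 CPM against 7.31 in Clover), and LTR2B is lowest there (5.4 against 9.55).

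HERVE_a-int carried more of the difference between constructs than HERVE-int. It measured 7.31 ± 1.18 CPM with Clover, 30.5 ± 1.92 with Z18fl, 18 ± 1.18 with Z18trunc and 15 ± 3.57 with Z18truncZnFmut. HERVE-int measured 18.9 ± 0.697, 27.1 ± 0.271, 24.2 ± 1.17 and 25.8 ± 5.2 CPM in the same order. The members were chosen by subfamily after the excess of HERVE_a-int in Z18fl over Clover and its decrease from Z18fl to Z18trunc had been measured in these libraries, so both of those comparisons are given as descriptions without a test. HERVE_a-int had a log2 fold change of 1.59 ± 0.10 (SE) in Z18fl against Clover and -0.81 ± 0.08 in Z18trunc against Z18fl. For HERVE-int the values were 0.05 ± 0.08 and -0.22 ± 0.08.

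Against Clover, Z18trunc recovered more HERVE_a-int RNA and less LTR2B RNA. HERVE_a-int had a log2 fold change of 0.84 ± 0.13, given as a description. LTR2B fell by 0.91 ± 0.15 on the log2 scale (edgeR adjusted p = 0.00016). These were the 2 calls among the 5 subfamilies, where 15.7% of all 924 subfamilies tested were called higher and 11.0% lower. This comparison shares its libraries with both of those that chose the members, so it is not independent of them. For HERVE_a-int the direction and approximate size followed from those 2 measured differences, so its call is no test. HERVE-int, LTR2 and LTR2C had values of -0.11 ± 0.10, -0.16 ± 0.14 and -0.18 ± 0.24 (edgeR adjusted p = 0.51, 0.48 and 0.67). With aligned fragments as library size these 3 values turned positive, to 0.35, 0.31 and 0.31, HERVE-int then passed the threshold (edgeR adjusted p = 0.022), and 2 of the 5 subfamilies were called higher and 1 lower.

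In Z18truncZnFmut against Clover, none of the 5 subfamilies was called by edgeR, with 1 at an unadjusted p under 0.05. Of all 920 subfamilies, 1.30% were called higher and 0% lower. DESeq2 called 1 of the 5, LTR2B. HERVE_a-int measured 0.22 ± 0.26 (edgeR adjusted p = 0.67) and LTR2B -0.83 ± 0.24 (edgeR adjusted p = 0.12). With aligned fragments as library size the median over all subfamilies was 1.04 and all 5 values were positive, with LTR2B at 0.016 ± 0.41 (edgeR adjusted p = 0.97). Without Z18truncZnFmut replicate 3 both passed the threshold, HERVE_a-int at 0.50 ± 0.16 (edgeR adjusted p = 0.014) and LTR2B at -0.58 ± 0.17 (edgeR adjusted p = 0.0039). Between Z18truncZnFmut and Z18trunc, edgeR called none of the 5 subfamilies, with 1 at an unadjusted p under 0.05 and 0 by DESeq2, and 0% of all 956 were called in either direction. HERVE_a-int measured -0.56 ± 0.23 on the log2 scale (edgeR adjusted p = 0.82).

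In Z18fl, most HERVE_a-int RNA came from 1 place. The chromosome 18 stretch covered 7586 bases on the plus strand within an intron of the long noncoding RNA gene ENSG00000267327, with 3 HERVE_a-int pieces between its 2 LTR2. It measured 2.72 ± 0.212 CPM with Clover, 23.0 ± 1.09 with Z18fl, 11.9 ± 1.06 with Z18trunc and 7.85 ± 1.12 with Z18truncZnFmut. It accounted for 34.6% ± 5.13 of HERVE_a-int counts with Clover, 73.3% ± 1.72 with Z18fl, 63.4% ± 3.88 with Z18trunc and 50.3% ± 12 with Z18truncZnFmut. With the stretch left out, HERVE_a-int measured 4.82 ± 1.11, 8.16 ± 1.02, 6.59 ± 0.898 and 7.70 ± 3.70 CPM, the last being 5.56 without Z18truncZnFmut replicate 3. Its log2 fold change was then 0.31 ± 0.15 in Z18fl against Clover and -0.36 ± 0.11 in Z18trunc against Z18fl, and for Z18trunc against Clover it was -0.02 ± 0.17 (edgeR adjusted p = 0.95). The call for HERVE_a-int in Z18trunc was thus lost without that stretch, a removal chosen after the data had been seen.

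The largest piece, the HERVE_a-int at chr18:55950851-55955090, had 1.32, 1.23 and 1.81 CPM with Clover, 15.3, 15 and 15.8 with Z18fl, 6.60, 7.97 and 7.60 with Z18trunc and 4.22, 5.26 and 4.45 with Z18truncZnFmut. No 2 constructs overlapped, and the order ran from Clover through Z18truncZnFmut and Z18trunc to Z18fl. Against Clover it rose in Z18trunc by a log2 fold change of 1.99 ± 0.21 (edgeR adjusted p = 6.4e-07). In Z18truncZnFmut it rose by 1.48 ± 0.25 (edgeR adjusted p = 0.00015). Both calls held under all 13 alternative settings run for this locus, which drew on the same libraries. The locus lies in the stretch that held most HERVE_a-int counts in Z18fl and without which the HERVE_a-int call in Z18trunc was lost. The direction of that subfamily difference was known beforehand, so the Z18trunc p-values of the pieces of this stretch do not test it independently. Comparisons of the locus with Clover share libraries with those that chose the members, so they are not independent of that choice. The same holds for the other loci below. In Z18fl the largest piece was higher than in Clover by a log2 value of 3.03 ± 0.18, and in Z18trunc lower than in Z18fl, at -1.13 ± 0.14. Z18truncZnFmut against Z18trunc gave -0.49 ± 0.19 (edgeR adjusted p = 0.21), which was called under none of 13 alternatives.

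The piece at chr18:55955195-55957518 showed the same order, with 0.959, 1.17 and 0.736 CPM with Clover, 6.12, 5.46 and 6.43 with Z18fl, 3.62, 3.59 and 2.83 with Z18trunc and 1.94, 2.72 and 2.23 with Z18truncZnFmut. It rose in Z18trunc by 1.46 ± 0.27 (edgeR adjusted p = 0.00026) and in Z18truncZnFmut by 1.07 ± 0.32 (edgeR adjusted p = 0.022, called in 8 of 13 alternatives). The second call was lost without Clover replicate 1 or 3 or without Z18truncZnFmut replicate 2 or 3, with edgeR adjusted p from 0.051 to 0.14. The values that involve the choice of members were 2.28 ± 0.23 for Z18fl against Clover and -0.92 ± 0.17 for Z18trunc against Z18fl. The third piece, 110 bases at chr18:55955089-55955198, passed the count filter in Z18fl against Clover, at 3.16 ± 0.62, and not in the comparisons of the truncated forms with Clover. It lies end to end with its neighbours.

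The 2 LTR2 of the stretch had fewer counts than the 2 large pieces between them. The first held 50 counts over all libraries and the second 89.28. Per kilobase, the first LTR2 had 0.752 CPM in Z18fl and the adjoining HERVE_a-int 3.63, while the second LTR2 had 0.819 and the HERVE_a-int before it 2.58. Clover values per kilobase were 0.215 and 0.343 for the first pair and 0.300 and 0.411 for the second pair. In Z18trunc they were 0.336 and 1.74, then 0.783 and 1.44. In Z18truncZnFmut they were 0.289 and 1.10, then 0.908 and 0.990, so the second LTR2 was close to the piece before it there. Among elements with at least 10 counts within 40 kb of the stretch, the highest level was 0.545 CPM per kilobase in Clover, above both large HERVE_a-int pieces, and 0.763 in Z18fl, below both. The highest in Z18trunc was an AluY at 1.48 CPM per kilobase, between the 2 large pieces, and in Z18truncZnFmut a MIR at 0.726. An L1MEc element 23992 bases after the start of the stretch measured 0.0789, 0.554, 0.838 and 0.333 CPM in Clover, Z18fl, Z18trunc and Z18truncZnFmut. In that L1MEc the highest mean was in Z18trunc, whereas in the HERVE_a-int pieces it was in Z18fl. That difference between neighbours was not tested.

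**Figure D2:**
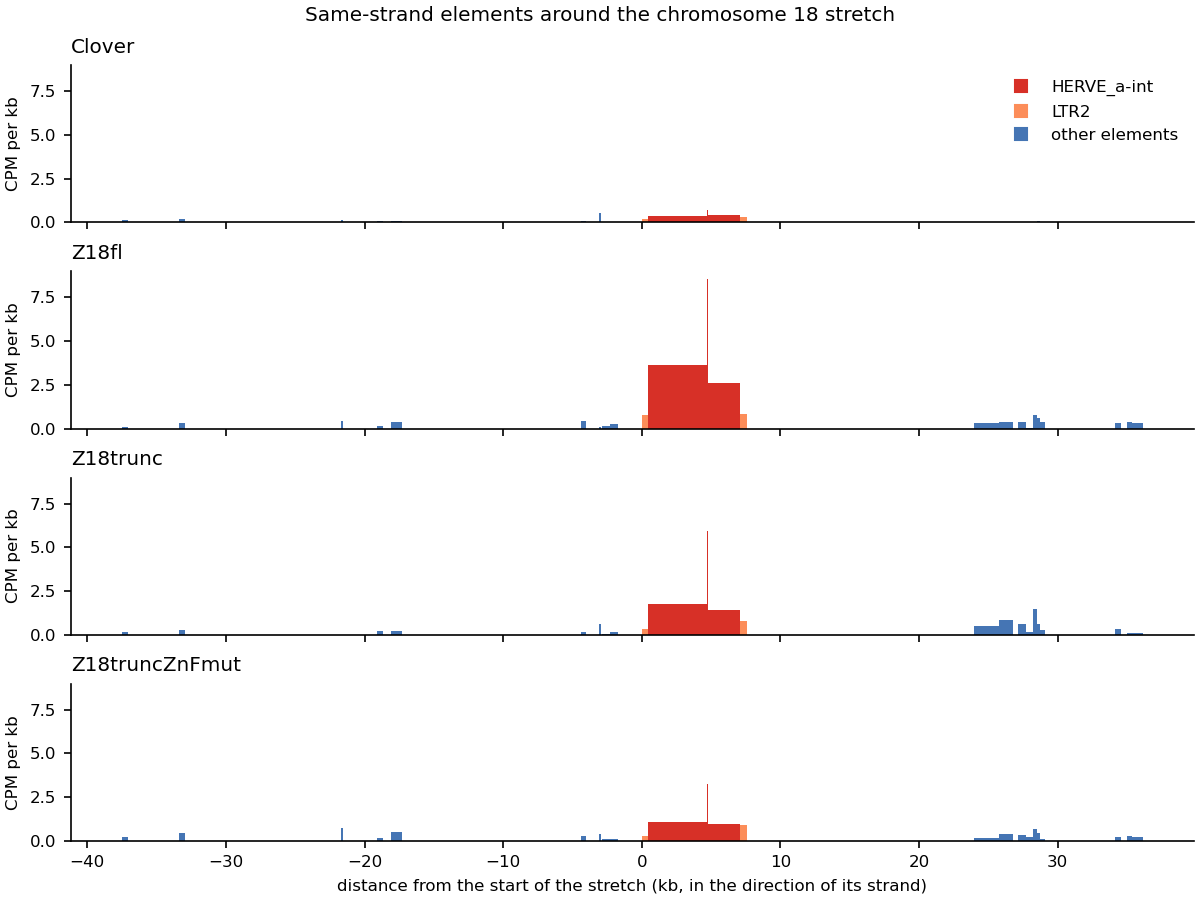
Mean CPM per kilobase of each element along the chromosome 18 stretch and its flanks, against distance from the start of the first LTR2, by construct. The 3 HERVE_a-int pieces stand above the 2 LTR2 on either side (3.63 CPM per kilobase in Z18fl for the largest piece against 0.752 for the LTR2 before it), and the thin tall bar is the piece of 110 bases.

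Other HERVE-int loci differed in direction. The element of the chromosome 13 copy, chr13:40875044-40880825 in an intron of the long noncoding RNA gene ENSG00000290476, had 1.98, 1.70 and 2.26 CPM with Clover, 7.99, 7.10 and 7.63 with Z18fl, 3.57, 4.55 and 3.8 with Z18trunc and 4.22, 2.82 and 2.39 with Z18truncZnFmut. Every ZC3H18 library was above every Clover library. It rose in Z18trunc by 0.66 ± 0.22 (edgeR adjusted p = 0.022, called in 9 of 13 alternatives) and measured 0.45 ± 0.26 in Z18truncZnFmut (edgeR adjusted p = 0.25). The call was lost without Clover replicate 1 or 2 or Z18trunc replicate 2, with edgeR adjusted p from 0.054 to 0.12. The descriptive values were 1.57 ± 0.19 for Z18fl against Clover and -1.01 ± 0.16 for Z18trunc against Z18fl.

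The HERVE-int at chr5:88189236-88190729 was classed as intronic in TMEM161B, but 28.2% of its length was annotated untranslated sequence, so it was partly exonic. The members that follow it on its strand were classed as between genes. The element had 0.839, 1.11 and 0.905 CPM with Clover and 5.01, 4.75 and 5.06 with Z18fl. With Z18trunc it had 3.76, 3.51 and 3.30, and with Z18truncZnFmut 2.81, 2.26 and 3.10. The 4 constructs did not overlap. It rose in Z18trunc by 1.54 ± 0.25 (edgeR adjusted p = 0.00010) and in Z18truncZnFmut by 1.31 ± 0.30 (edgeR adjusted p = 0.0027), and both were called in all 13 alternatives. For Z18fl against Clover the value was 2.0 ± 0.23 and for Z18trunc against Z18fl -0.56 ± 0.17.

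A different pattern was seen for the HERVE-int at chr2:158882710-158886251, which lies between genes. It had 0.480, 0.292 and 0.566 CPM with Clover, 0.508, 0.828 and 0.467 with Z18fl, 1.60, 1.69 and 1.52 with Z18trunc and 1.24, 0.893 and 0.661 with Z18truncZnFmut. Clover and Z18fl overlapped, and all 3 Z18trunc libraries were above all others. It rose in Z18trunc against Clover by 1.49 ± 0.36 (edgeR adjusted p = 0.0032, called in all 13 alternatives). Its Clover counts alone did not meet the count filter, so this test depended on Z18trunc, where the element was high. Z18fl against Clover was 0.07 ± 0.46, Z18trunc against Z18fl 1.33 ± 0.30, and Z18truncZnFmut against Clover 0.84 ± 0.46 (edgeR adjusted p = 0.23). Another HERVE-int between genes, chr2:231405686-231408345, had no count in the 3 Clover libraries and 34, 57 and 20 counts summed over the Z18fl, Z18trunc and Z18truncZnFmut libraries. Against a floor of 3 counts over the Clover group, the ratios were 8.12, 13.6 and 4.92. They take the counts of the ZC3H18 constructs as exact, so they are not strict lower bounds. This element was picked for having no Clover count, and it did not pass the count filter in any comparison with Clover.

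The next loci by count were level or lower with ZC3H18. The HERVE-int at chr7:97951319-97955393, in an intron of the noncoding gene ENSG00000284707, had 3.06, 3.16 and 4.30 CPM in Clover and 2.73, 2.48 and 2.66 in Z18trunc, and it fell by 0.77 ± 0.21 on the log2 scale (edgeR adjusted p = 0.0078). In Z18truncZnFmut it had 3.28, 2.44 and 2.06 CPM, a log2 fold change of -0.65 ± 0.24 (edgeR adjusted p = 0.061). The HERVE-int at chr4:4160757-4164813, between genes, had 1.97, 2.65 and 3.17 CPM in Clover and 1.70, 2.10 and 2.0 in Z18trunc. It fell by 0.77 ± 0.25 (edgeR adjusted p = 0.020), although 1 Clover library lay below 2 of the Z18trunc libraries in CPM. The HERVE-int at chr3:848074-853381, also between genes, had 2.10, 1.99 and 1.47 CPM in Clover, 0.821, 0.436 and 0.662 in Z18fl and 1.39, 1.12 and 1.56 in Z18trunc, and it fell in Z18trunc by 0.79 ± 0.28 (edgeR adjusted p = 0.033, called in 4 of 13 alternatives). With aligned fragments as library size none of these 3 falls was called. Leaving out a library also ended them, with edgeR adjusted p from 0.063 to 0.19: for chromosome 7 without Clover replicate 3 or Z18trunc replicate 2, for chromosome 4 without Clover replicate 3 or Z18trunc replicate 1 or 2, and for chromosome 3 without Clover replicate 1 or 2 or Z18trunc replicate 1 or 2.

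Both remaining HERVE_a-int elements among the 10 largest lay between genes. The one at chr19:19895560-19897352 had 1.38, 0.760 and 1.98 CPM with Clover, 1.64, 1.70 and 1.36 with Z18fl, 1.39, 1.98 and 1.31 with Z18trunc and 1.41, 1.11 and 1.69 with Z18truncZnFmut, with all groups overlapping. That at chr15:55513406-55516274 had 0.959, 0.468 and 0.905 with Clover, 1.99, 1.31 and 2.10 with Z18fl, 1.30, 1.12 and 0.972 with Z18trunc and 1.20, 0.658 and 1.40 with Z18truncZnFmut. Neither passed the test in Z18trunc (edgeR adjusted p = 0.73 and 0.71) or in Z18truncZnFmut (edgeR adjusted p = 0.82 and 0.70). The HERVE_a-int at chr4:35101011-35108768 had a descriptive log2 fold change of 1.56 ± 0.45 in Z18fl against Clover.

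**Figure D3:**
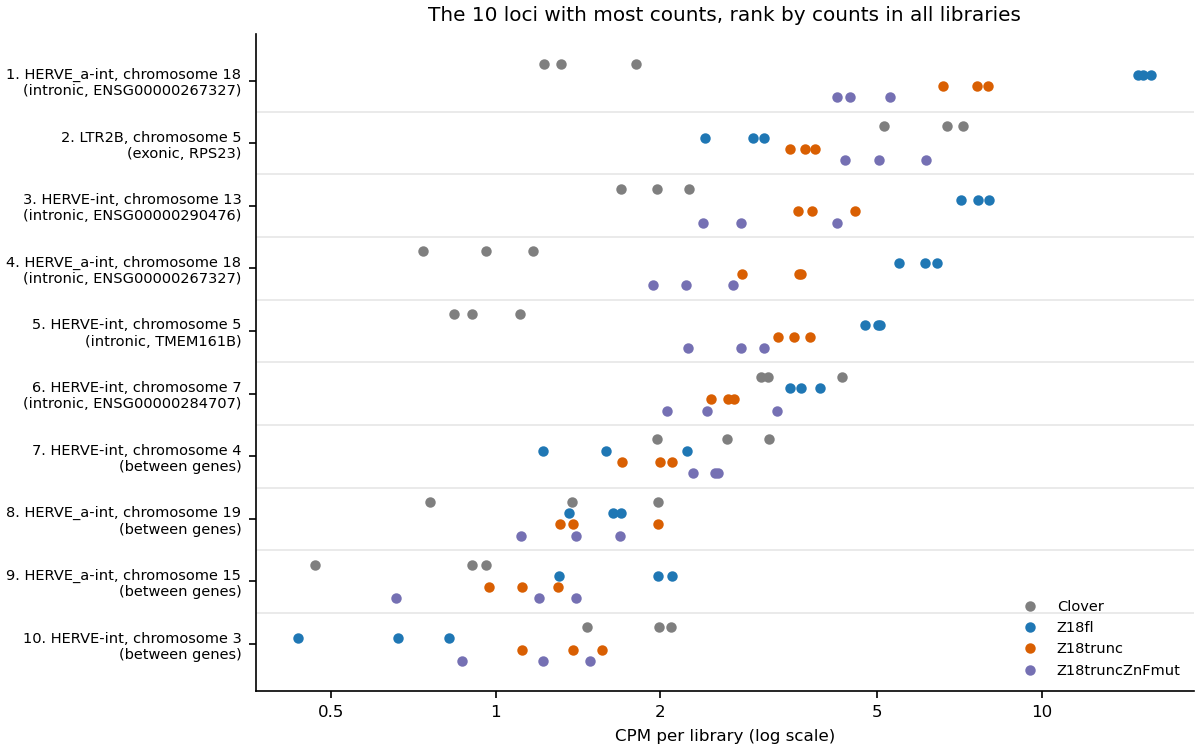
CPM, on a log axis, of the 10 member loci with the largest counts in each of the 12 libraries, with points for libraries coloured by construct. In the largest chromosome 18 locus the 3 Z18fl libraries sit at 15 to 15.8 CPM against 1.23 to 1.81 in Clover, while in the RPS23 LTR2B the Clover libraries, at 5.14 to 7.19, lie above Z18fl, at 2.42 to 3.09.

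Among the long terminal repeats, the element with the largest count was an LTR2B at the end of a host gene. It lies at chr5:82273284-82273743 in an exon of RPS23, which encodes a protein of the small ribosomal subunit, with 92.2% of its length in untranslated sequence. The Clover libraries had 6.71, 5.14 and 7.19 CPM, Z18fl 2.42, 3.09 and 2.96, Z18trunc 3.84, 3.68 and 3.46 and Z18truncZnFmut 6.12, 4.37 and 5.04. Clover lay above Z18fl and Z18trunc without overlap and overlapped Z18truncZnFmut. It fell in Z18trunc by 1.14 ± 0.17 on the log2 scale (edgeR adjusted p = 3.7e-05), a call that was lost when no filter on low counts was used (edgeR adjusted p = 0.084). Z18truncZnFmut against Clover was -0.50 ± 0.19 (edgeR adjusted p = 0.070, or 0.046 without Clover replicate 2), and Z18fl against Clover, as a description, -1.53 ± 0.19. All 3 Z18truncZnFmut libraries were above all 3 Z18trunc libraries, with a log2 fold change of 0.67 ± 0.19 (edgeR adjusted p = 0.092). DESeq2 called this last difference, at 0.68 with an adjusted p of 0.039, and the adjusted p ranged from 0.039 to 0.46 over 13 alternatives.

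This element held most LTR2B counts, and other repeats of the gene showed the same order of constructs. Without it, LTR2B measured 3.20 ± 0.675 CPM with Clover, 2.58 ± 0.162 with Z18fl, 3.33 ± 0.214 with Z18trunc and 4.48 ± 3.04 with Z18truncZnFmut, against 9.55 ± 1.30, 5.4 ± 0.316, 7.0 ± 0.353 and 9.66 ± 3.03 with it. Without Z18truncZnFmut replicate 3 the mean of that group was 2.73 CPM without the element and 7.98 with it, in both cases below Clover. The LTR2B log2 fold change in Z18trunc against Clover was then -0.39 ± 0.21 (edgeR adjusted p = 0.21), so that call too was lost. Within RPS23, L1MD2 measured 11.0, 4.52, 6.63 and 10.1 CPM, L2b 6.44, 2.50, 3.43 and 4.51, and AluJr 1.54, 0.555, 0.975 and 1.20 in Clover, Z18fl, Z18trunc and Z18truncZnFmut. Past the end of RPS23 the order of Clover and Z18fl was the opposite. A Harlequin-int element 2469 bases beyond the LTR2B measured 2.87, 7.22, 5.36 and 4.79 CPM, and the next LTR2B, at chr5:82267274-82267749, measured 0.152, 0.263, 0.334 and 0.310. These 2 LTR2B, 91.4% identical, enclose Harlequin-int pieces and no HERVE internal part.

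**Figure D4:**
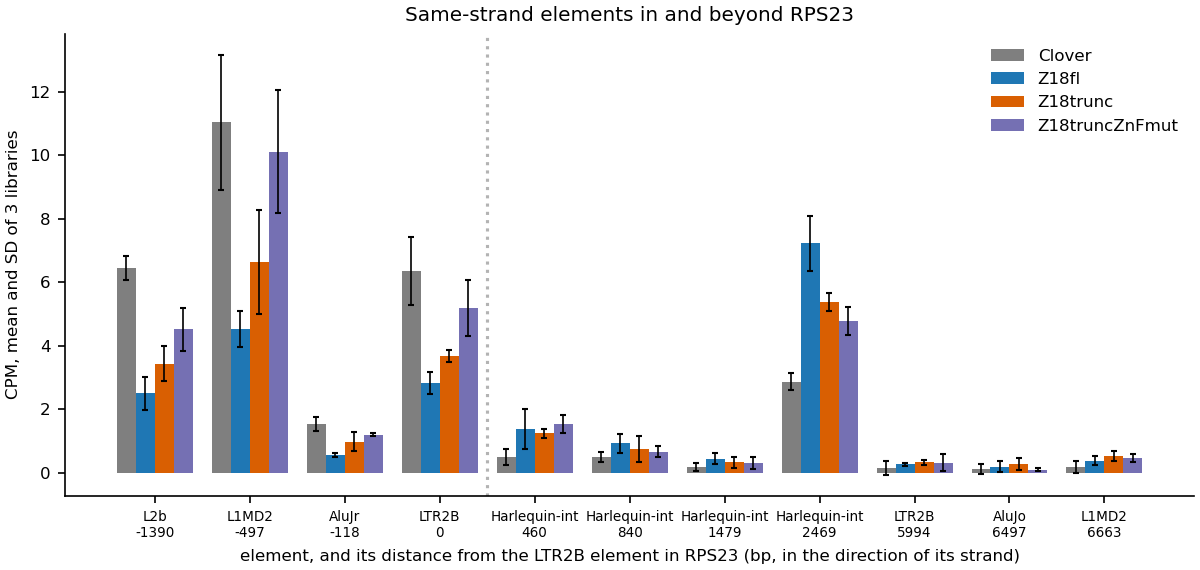
Mean CPM of the LTR2B in RPS23 and of the repeats around it in each construct, with bars for the SD of 3 libraries. Within the gene, Clover has the highest mean in each element (6.44 CPM for L2b and 11.0 for L1MD2), whereas beyond its end the Harlequin-int elements have their lowest mean in Clover (0.492 and 2.87).

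Another 3 repeats at gene ends had fewer reads. The LTR2B in DYNC1H1, the heavy chain of cytoplasmic dynein, at chr14:102056022-102056485, had 1.92, 1.52 and 1.08 CPM with Clover, 0.561, 0.828 and 0.545 with Z18fl, 1.18, 1.28 and 0.803 with Z18trunc and 1.24, 1.03 and 1.28 with Z18truncZnFmut. It fell in Z18trunc by 0.81 ± 0.31 on the log2 scale (edgeR adjusted p = 0.049, called in 2 of 13 alternatives). The LTR2B in the zinc finger protein gene ZNF888, at chr19:52904374-52904852, had 0.779, 0.593 and 0.622 CPM with Clover, 0.345, 0.131 and 0.117 with Z18fl, 0.379, 0.413 and 0.169 with Z18trunc and 0.207, 0.0940 and 0.541 with Z18truncZnFmut. All of its ZC3H18 libraries were below all Clover libraries. It fell in Z18trunc by 1.38 ± 0.48 (edgeR adjusted p = 0.029, called in 2 of 12 alternatives). It met the count filter through Clover alone, where it was high, so the filter favoured a fall. Both falls were lost without any 1 of the 3 Z18trunc libraries and without Clover replicate 1, and also without Clover replicate 2 for DYNC1H1 and replicate 3 for ZNF888, with edgeR adjusted p from 0.072 to 0.19. The LTR2C in the glycosyltransferase gene B3GNT7, at chr2:231400712-231401206, had means of 0.585, 0.590, 0.628 and 0.554 CPM, with log2 fold changes of -0.24 in Z18trunc and -0.28 in Z18truncZnFmut (edgeR adjusted p = 0.73 and 0.76).

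Away from gene ends, an LTR2 was highest in Z18fl. The element at chr19:57815303-57815723, in an intron of ZNF586, had 0.659, 0.234 and 0.453 CPM with Clover, 1.25, 2.0 and 2.26 with Z18fl, 0.505, 1.16 and 0.634 with Z18trunc and 0.786, 0.611 and 0.908 with Z18truncZnFmut. Z18fl lay above every other library. The log2 fold change was 1.67 ± 0.38 in Z18fl against Clover and -1.34 ± 0.31 in Z18trunc against Z18fl, as descriptions. Against Clover, Z18trunc measured 0.43 ± 0.49 and Z18truncZnFmut 0.58 ± 0.49 (edgeR adjusted p = 0.52 and 0.47).

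Few members had enough reads to be tested, and those tested are not representative of all 913. In Z18trunc against Clover, 20 member loci were tested, of which 5 rose and 6 fell, while 22.5% of all 13204 loci tested were called higher and 13.4% lower. With aligned fragments as library size, 6 rose and 1, the RPS23 element, fell. The 13 tested internal parts had a median log2 fold change of 0.58 with 5 called higher and 3 lower. The 7 tested LTR2 elements had a median of -0.81 with 0 called higher and 3 lower. Over 288 other ERV1 internal parts the median was -0.38, with 15 called higher and 68 lower, and over all 1906 LTR-class loci it was -0.25, with 168 and 358. In Z18truncZnFmut against Clover, 17 were tested, of which 3 rose and 0 fell by edgeR, with 7 at an unadjusted p under 0.05 in either direction. Of all 10152 loci, 12.3% were called higher and 4.83% lower. The 3 that rose were the 2 larger chromosome 18 pieces and the TMEM161B element.

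Between Z18truncZnFmut and Z18trunc, edgeR called 0 of 23 tested member loci, with 3 at an unadjusted p under 0.05 and 1, the RPS23 LTR2B, by DESeq2. Over all 16833 loci 0.368% were called higher and 0.351% lower. The median log2 fold change was 0.01 over 16 internal parts and 0.14 over 7 LTR2 elements. Of the comparisons that chose the members, Z18fl against Clover had 19 tested loci, 8 of them called higher and 5 lower, beside 28.3% and 24.6% of all 12098 loci. Z18trunc against Z18fl had 24, with 1 called higher and 5 lower, beside 2.62% and 3.13% of all 19413 loci. For subfamilies the same comparisons called 1 of 5 higher and 1 lower, beside 20.1% and 20.1% of 914, and 0 higher and 1 lower, beside 1.48% and 2.22% of 947. Nothing is read from the counts of these 2 comparisons.

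**Figure D5:**
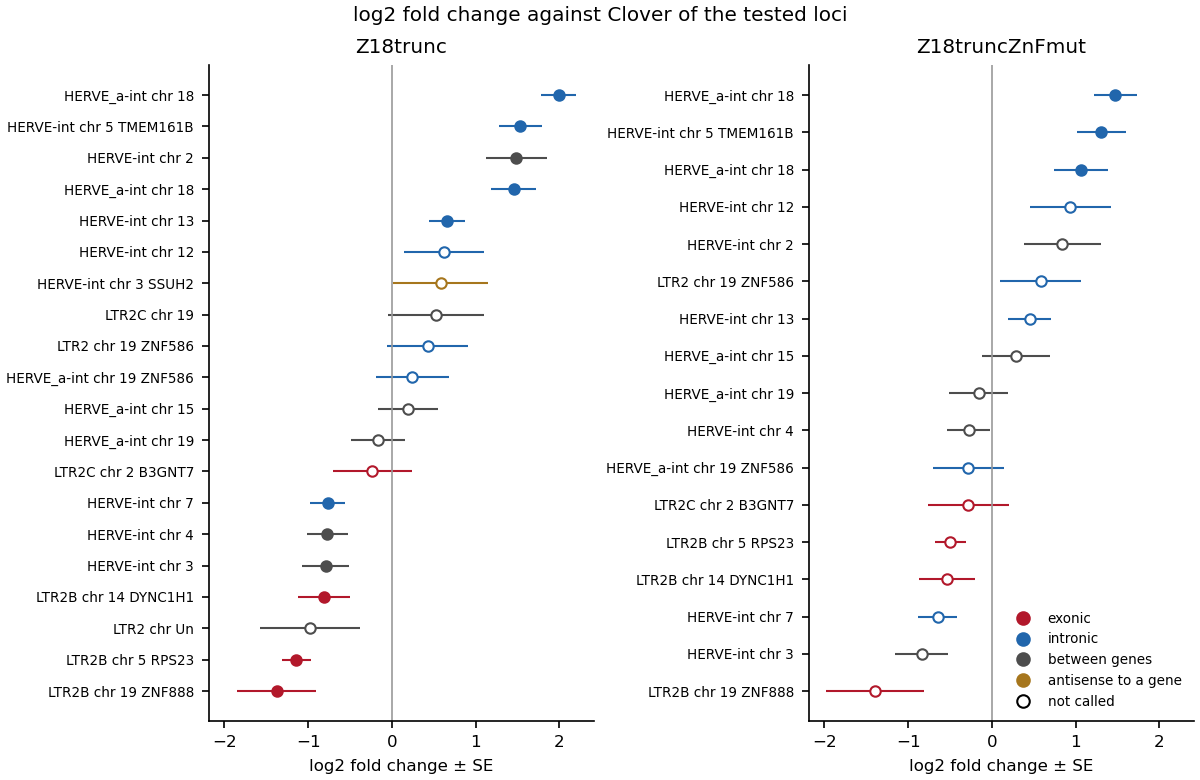
Log2 fold change (edgeR, with bars for the SE) of tested member loci in Z18trunc and Z18truncZnFmut against Clover, coloured by gene context, with open points for loci that were not called. The chromosome 18 HERVE_a-int locus is highest in both, at 1.99 and 1.48, and the ZNF888 LTR2B is lowest in both, at -1.38 and -1.39. The ZNF888 LTR2B met the count filter through Clover alone, where it was high.

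Gene context went with direction among the tested loci. In Z18trunc against Clover, 8 intronic members had a median log2 fold change of 0.64, with 7 above 0, and 4 exonic members had a median of -0.98, with 0 above 0. The 7 members between genes had a median of -0.17, with 3 above 0. In Z18truncZnFmut against Clover the medians were 0.76 for 8 intronic, -0.52 for 4 exonic and -0.16 for 5 members between genes. The exonic members were all LTR2B or LTR2C and most intronic members were internal parts, so context and repeat type cannot be told apart. The exonic ones included the ZNF888 LTR2B, which met the count filter through Clover alone. The intronic members were not independent, since they included pieces of the same chromosome 18 copy and adjoining elements in ZNF586. They also included the TMEM161B element, which was partly exonic, with 28.2% untranslated sequence, and was followed by members between genes. That element rose in Z18trunc (1.54) and in Z18truncZnFmut (1.31), opposite in direction to the exonic members. Medians by context were not computed over all tested loci, so the pattern cannot be called particular to these members. The study reported enrichment of introns over exons for Z18fl and Z18trunc, measured as log2 binding over Clover in T-to-C transition clusters across the genome. The values here are shares of all reads on the members, without crosslink evidence, so the 2 measures are not alike. Over all members, the intronic share of counts was 32.2% with Clover, 64.1% with Z18fl, 48.6% with Z18trunc and 39.6% with Z18truncZnFmut, and the exonic share 23.2%, 8.54%, 12.4% and 14%. The intronic chromosome 18 stretch alone held a mean of 5.85%, 29.8%, 19.1% and 12.3% of member counts in the same order.

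Among all 631 LTR2 elements, 28 held an annotated transcript end on their own strand (GENCODE release 44), and in 20 of these an end lay 10 to 40 bases after the start of AATAAA. Of those 20, 7 belonged to protein-coding genes. Members at or near genes known for HERV-E promoters or insertions gave few reads in these cells. Members within 20 kb of EDNRB, the endothelin receptor type B, held 1, 1 and 11 counts over all libraries, and the LTR2 at APOC1, an apolipoprotein gene, held 9. The 4 members at MID1, a ubiquitin ligase gene, held 4, 2, 4 and 4 counts, and no listed member lay near PTN, which encodes the growth factor pleiotrophin. The LTR2C at chr14:105038636-105038946, beside a MER4-int stretch that the study followed, held 3 counts, all in Z18fl. None of these members passed the count filter, and differences between constructs were not detectable there at this depth.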

How the data were processed

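Tables of repeat elements were analysed for 12 PAR-CLIP libraries, 3 for each of 4 V5-tagged constructs in A375 cells. The authors prepared stranded, ribosomal RNA-depleted libraries without size selection of protein, trimmed reads with cutadapt 4.6, aligned them to hg38 and counted them per element with SQuIRE, whose version is not given in the sources used here. In the deposited tables, unique counts are whole-number counts, total counts are expected counts that share multi-mapping reads among elements, and aligned library sizes are counts of fragments. The deposited score is a percent that rates assignment confidence, and the deposited divergence was rescaled to a percent. The deposited FPKM values were not used.

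Here same-strand total counts were rounded to whole numbers and fitted with edgeR 4.0.16 in R 4.3.3 (glmQLFit and glmQLFTest, TMM, filterByExpr with a minimum count of 10 and total of 15), on every element or subfamily of the 6 transposable element classes and on the 6 libraries of each comparison. Benjamini-Hochberg adjustment ran over all features tested, with a threshold of 0.05. DESeq2 1.42.0 was an alternative. Others were aligned fragments as library size, no filter, either strand, unique reads, a single fit of 12 libraries, a replicate block and each library left out. Depth limits precision, and the floor of 3 counts covers counting error in the Clover group only. Tables were processed with Python 3.11.15, pandas 2.3.3 and numpy 2.4.6. Sequences were read from hg38 with pysam 0.24.0, repeat pairs aligned with edlib 1.3.9.post1, and gene context taken from GENCODE release 44, with elements called exonic where at least 50% of their bases were exonic. The ends of some repeats are not reported here as sequence.

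The members and lists were chosen with earlier results of these data known. Named were the 5 subfamilies, the 10 loci and 5 stretches with the largest counts, up to 5 highest and 5 lowest called loci per comparison, members within 20 kb of EDNRB, APOC1, MID1 and PTN, and LTR2C elements beside the MER4-int stretch followed by the study. Other loci named at gene ends or for having no Clover count were chosen after their values were seen. Tested on simulated data with 200 features changed in each comparison, the locus fits recovered 48.5% to 60.5% of changes and 85.2% to 91.7% of 4-fold ones, and subfamily fits 83.5% to 90.0%, with 0 calls in the wrong direction. Of the calls made there, 2.94% to 8.8% at loci and 2.17% to 5.88% at subfamilies fell on unchanged features. The simulation used the same fixed dispersion in every comparison and held no outlying library. Its recovery rates therefore do not carry over to comparisons with Z18truncZnFmut, whose replicate 3 stood apart.

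Replicate numbers were checked for pairing by correlating the deviations of same-numbered libraries from their group means. Over 17387 loci no correlation exceeded 0.027. Over 965 subfamilies the 3 pairs of Z18truncZnFmut and Z18trunc gave 0.42, 0.19 and 0.61, a hint of pairing that the labels do not state. With the replicate block, calls over all loci in that comparison went from 62 higher and 59 lower to 22 and 17. No member locus or subfamily was called there by edgeR with or without the block.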

Additional observations from a re-analysis of the deposited data

Results flagged for a closer look

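Reads on the strand opposite to the element lie outside the comparisons above and were higher than in every Clover library in some groups. For HERVE internal parts they measured 15 ± 1.02 CPM in Z18fl (SD, n = 3, lowest 14.3) against 10.6 ± 1.80 in Clover (highest 12.6). For LTR2 elements they measured 7.63 ± 0.528 CPM in Z18fl, 9.34 ± 0.424 in Z18trunc and 10.8 ± 4.02 in Z18truncZnFmut, against 6.07 ± 0.803 in Clover (highest 6.87). Without Z18truncZnFmut replicate 3, which stood apart, the mean of that group was 8.45 CPM, below that of Z18trunc. As counts per 1000000 element counts, the LTR2 means were 153 for Clover and 147 for Z18fl, and both truncated constructs had 164. These differences were not tested.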

How the results depend on the processing

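Of 338 alternative values for subfamilies, 299 kept their sign and side of the threshold, 24 changed sign without a call in either fit, 4 lost a call, 9 gained one and 2 changed sign with a call in one of the fits. Of 932 for loci, 805 kept both, 39 changed sign without a call in either fit, 79 lost a call, 9 gained one and 0 changed sign with a call. Aligned fragments as library size gave 10 of the 24 and 7 of the 39 uncalled sign changes. The reversals that involved a call were HERVE_a-int in Z18trunc against Clover without the chromosome 18 stretch (-0.020) and HERVE-int in that comparison with aligned fragments as library size (0.35). In Z18trunc against Clover the 11 calls among loci became 7 with DESeq2, 7 with aligned fragments, 7 with no filter on low counts and 5 to 11 with a library left out, lowest without Z18trunc replicate 2. In Z18truncZnFmut against Clover the 3 locus calls became 7 in the single fit of all 12 libraries, which tested 32 members rather than 17, and the 0 subfamily calls became 1 with DESeq2, 1 in the single fit and 0 to 2 with a library left out, the 2 without Z18truncZnFmut replicate 3. Z18fl against Clover called 4 rather than 2 subfamilies with aligned fragments (3 higher and 1 lower). Z18trunc against Z18fl called 2 rather than 1 subfamilies on either strand, 0 in the single fit and 1 to 2 with a library left out, the 2 without Z18trunc replicate 3. Z18truncZnFmut against Z18trunc called 1 locus rather than 0 with DESeq2.

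The summed log2 ratio of internal parts in Z18fl over Clover was 1.13, and 0.77 relative to the counts on tested elements, 1.26 with unique reads, 0.98 on either strand and 0.57 without the chromosome 18 stretch. In Z18trunc it was 0.69, and 0.21 relative to tested elements and 0.37 without the stretch. In Z18truncZnFmut it was 0.64, and 0.24 relative to tested elements. LTR2 elements in Z18fl gave -0.03, and -0.398 relative to tested elements and 0.19 with unique reads. In Z18trunc they gave 0.00024, and -0.47 relative to tested elements, 0.19 with unique reads and 0.20 on either strand. Leaving out the chromosome 18 stretch or the RPS23 element was chosen after seeing the data. Where no cause is named, the cause was not tested. With the replicate block, Z18trunc against Clover called 8 loci rather than 11 (5 higher and 3 lower), Z18trunc against Z18fl called 5 rather than 6, and in the other 3 comparisons the number of locus calls was the same. Low counts kept all but 17 to 24 of the 913 members, depending on the comparison, from being tested.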
